A study of Mus musculus with 21 samples.

Results

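Small leucine-rich proteoglycans are secreted proteins of the extracellular matrix, and 7 of their genes, Bgn, Dcn, Lum, Fmod, Prelp, Ogn and Aspn, were followed across sorted lung fibroblasts and lung epithelial cells of the mouse. The members were chosen by symbol, and all 7 had a row among the 21170 genes of the fibroblast tables and the 23869 genes of the epithelial tables. The 21 libraries came from C57BL/6 mice carrying the Col1a2-GFP transgene in every group, with no treatment. The fibroblasts were live cells negative for CD31, CD45, CD146, Ter119 and Epcam and positive for GFP, 2 libraries each at embryonic day 18.5 (E18.5) and postnatal days 0.5, 2, 7 and 28 (P0.5, P2, P7, P28) and 1 at P56. The epithelial cells were negative for the same lineage markers and positive for Epcam, 2 libraries at each stage except P56. The GFP gate that the sort protocol gives for the epithelium is not named in its E18.5 labels. Because GFP follows Col1a2, the sort takes cells with an active type I collagen promoter, and fibroblasts without it are not represented. Expression was read by 3'SAGE-seq, which reads a single tag close to the polyadenylated end of a transcript, so values are not divided by gene length.

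Small leucine-rich proteoglycans carry a core of leucine-rich repeats that binds collagen fibrils and limits their lateral growth, and several also bind transforming growth factor beta. Biglycan and decorin, of class I, carry chondroitin or dermatan sulfate chains, and asporin, of the same class, lacks them. Lumican, fibromodulin and PRELP belong to class II, whose members can carry keratan sulfate, although PRELP is set apart by a basic, heparin-binding end. Osteoglycin, also called mimecan, belongs to class III. In the lung these proteins lie mainly in the walls of airways and vessels, the septa and the pleura, and are made by mesenchymal cells.

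Depth was 2146071 to 5729829 reads per library. The sorted cells were checked against their markers. The fibroblast libraries held Col1a1, a chain of type I collagen, at 685 to 2730 and Epcam, the gate's epithelial antigen, at 0 to 0.399, and the epithelial libraries held Epcam at 46.4 to 354 and Col1a1 at 0.288 to 21.4. The single P56 library stood apart, with deposited values that summed to 769260 against 896099 to 1115578 in the other fibroblast libraries. Its contrast with P28 had a median log2 change over all genes of -0.12 on the deposited scale and 0.06 after TMM scaling, and the share of called genes that were higher was 39.0% on the first scale and 51.0% on the second. Col2a1, the collagen of cartilage, was at 34.8 in fibroblast E18.5 library 1, 17.5 in P28 library 2 and 13.4 in P2 library 2, and at 0 to 0.591 in the others. Results that use those libraries are given without them where that changes a call. In sorted bulk samples, fewer cells of a type and less RNA per cell cannot be told apart. The labels number the libraries but name no separate animals, so each p-value reflects the spread among these samples alone, and that spread may be technical.

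Several members are neighbours in the genome (GRCm38, GENCODE annotation). Dcn (chromosome 10, 97479609 to 97518143) and Lum (97565128 to 97572703) lie 47.0 kb apart on the plus strand. Prelp (chromosome 1, 133910304 to 133921414, minus strand) and Fmod (134037254 to 134048277, plus strand) lie 115.8 kb apart and point away from each other. Aspn (chromosome 13, 49544443 to 49567565) and Ogn (49608046 to 49624501) lie 40.5 kb apart on the plus strand with Omd between them, and Bgn is on chromosome X (73483602 to 73495933, plus strand). Aspn and Ogn both lie within Cenpp, a centromere protein gene on the opposite strand. Cenpp was at 0 to 1.58 in every library.

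Promoters are printed for the neighbouring pairs Prelp and Fmod and Aspn and Ogn, whose members differed in their calls at the late stages in fibroblasts. Prelp was called higher at P28 than at P7 and Fmod was not, and Aspn was called lower at P56 than at P28 and Ogn was not. Each sequence is the 250 bases before the RefSeq start (GRCm38.p6), 5′ to 3′ on the gene's strand. They span chr1:133921402-133921651 for Prelp, chr1:134037004-134037253 for Fmod, chr13:49607765-49608014 for Ogn and chr13:49544193-49544442 for Aspn. Capitals mark a match on either strand to 1 of 4 motifs.
Prelp: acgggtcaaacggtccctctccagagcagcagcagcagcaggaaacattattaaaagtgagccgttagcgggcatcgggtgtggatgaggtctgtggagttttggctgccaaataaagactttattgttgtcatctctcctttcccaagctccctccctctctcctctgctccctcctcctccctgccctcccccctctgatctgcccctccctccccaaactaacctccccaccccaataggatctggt
Fmod: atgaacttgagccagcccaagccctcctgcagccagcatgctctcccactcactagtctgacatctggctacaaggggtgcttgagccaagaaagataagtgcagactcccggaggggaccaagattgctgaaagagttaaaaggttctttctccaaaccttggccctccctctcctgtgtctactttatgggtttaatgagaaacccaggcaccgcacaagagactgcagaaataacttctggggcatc
Ogn: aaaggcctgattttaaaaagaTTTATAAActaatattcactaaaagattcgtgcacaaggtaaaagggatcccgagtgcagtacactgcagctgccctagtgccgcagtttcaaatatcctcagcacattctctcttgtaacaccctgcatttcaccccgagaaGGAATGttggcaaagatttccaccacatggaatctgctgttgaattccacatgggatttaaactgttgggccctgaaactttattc
Aspn: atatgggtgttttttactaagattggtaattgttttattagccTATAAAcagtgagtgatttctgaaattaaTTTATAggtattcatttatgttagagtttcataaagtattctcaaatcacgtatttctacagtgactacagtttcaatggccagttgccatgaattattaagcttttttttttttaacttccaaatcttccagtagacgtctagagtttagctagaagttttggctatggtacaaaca
The motifs searched were the TATA box (TATAAA), the GC box (GGGCGG), the AP-1 site (TGANTCA) and the TEAD site (GGAATG). Over all 32851 promoter windows of this length, 12.4% held the TATA box letters, 32.7% the GC box, 6.75% the AP-1 site and 12.6% the TEAD site. Prelp and Fmod held none of the 4. Ogn held 2 overlapping TATA box matches on opposite strands, 229 and 227 bases before the start, and 1 TEAD match 86 bases before it. Aspn held 2 TATA box matches, 207 and 178 bases before the start. Bgn, which is not printed, held 3 GC box matches 34, 10 and 6 bases before its start, the last pair sharing bases. GC content was 64.4% for Bgn, 55.6% for Prelp, 51.2% for Fmod, 42.0% for Ogn and 30.0% for Aspn, beside a median of 52.4% over all windows. RefSeq promoter entries were used for 5 of the 7 members, not for Dcn and Lum.

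Together the 7 genes took 0.127% and 0.132% of the reads of the E18.5 fibroblast libraries, 0.120% and 0.132% at P0.5, 0.257% and 0.225% at P2, 0.241% and 0.226% at P7, 1.07% and 1.43% at P28 and 0.498% at P56. Their joint share was thus several times higher in both P28 libraries than in any earlier one, and the P56 library lay between. The make-up of that share changed as well. Bgn supplied 63.0% to 67.8% of the summed value in the 4 libraries of E18.5 and P0.5, and Dcn supplied 65.5% and 77.0% of it at P28. At P56 Dcn supplied 49.8%, Bgn 21.5% and Prelp 18.1%.

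**Figure D1:**
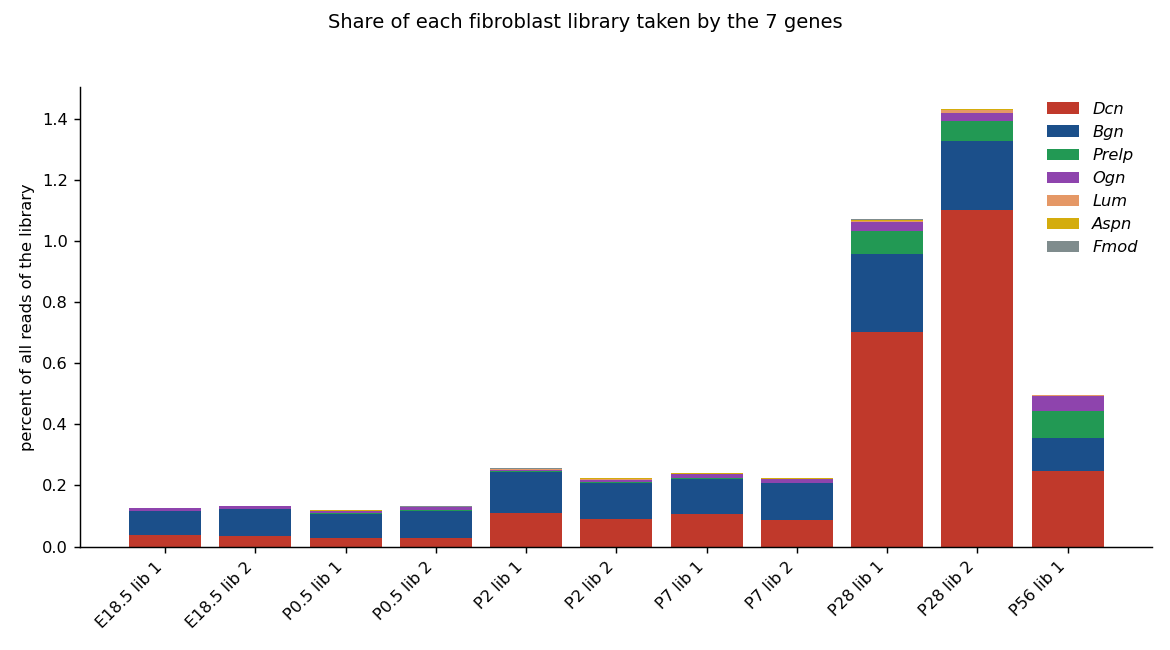
Share of all reads of each fibroblast library, in percent, taken by the 7 genes, stacked by gene, 1 bar per library in stage order. The bars of both P28 libraries reach 1.07% and 1.43%, mostly from Dcn, and the P56 bar reaches 0.498%.

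All 7 genes varied over the 6 fibroblast stages in the moderated F test of limma, where 61.6% of the 11954 genes tested did. Across the whole interval all 7 were higher at P28 than at E18.5 (limma, adjusted p below the threshold of 0.05 for each), where 18.7% of genes tested were called higher and 14.9% lower. The median log2 fold change of the 7 was 2.12, beside 0.01 over all genes. The interval was not covered evenly. At P0.5 against E18.5, 3 members were called higher, where 8.05% of genes were, and 1 was called lower, where 7.34% were. At P2 against P0.5, 3 were called higher, where 9.74% were. At P7 against P2 only Ogn was called, as higher, where 2.36% of genes were called higher. At P28 against P7, 5 were called higher, where 11.3% were, and at P56 against P28, 4 were called lower, where 19.1% were. The P28 libraries enter 3 of these comparisons, so their values are shared between them.

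**Figure D2:**
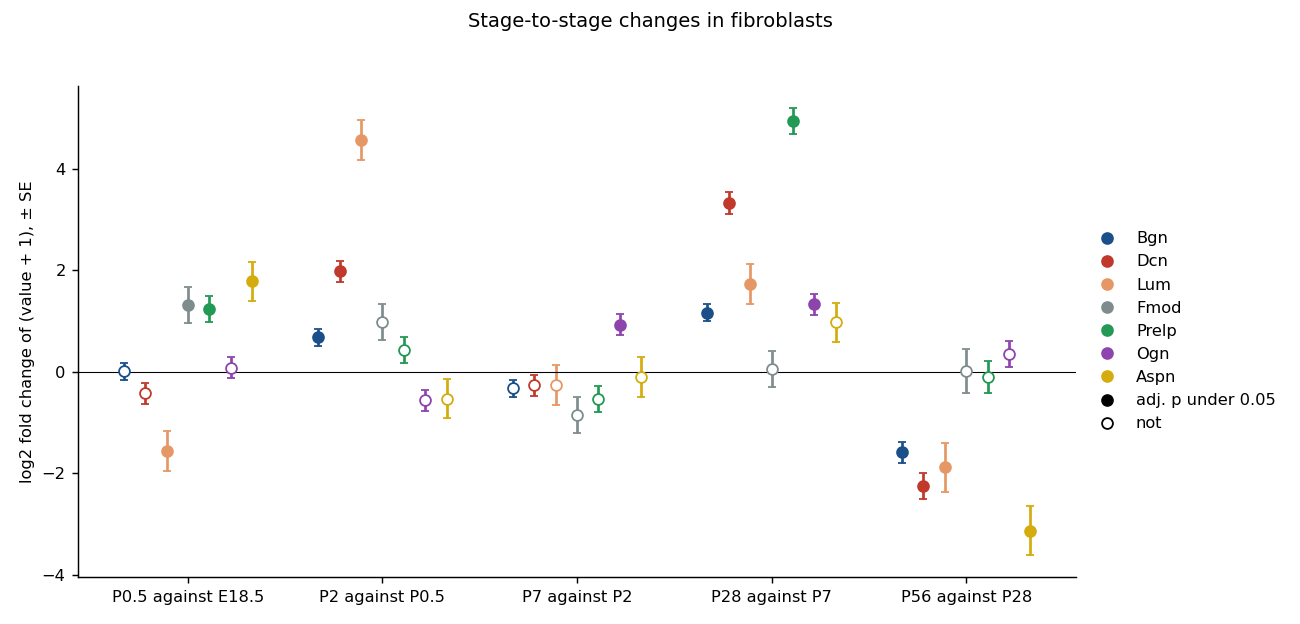
Log2 fold change of each member between successive fibroblast stages, on the log2(value + 1) scale, with its standard error. Filled points passed an adjusted p of 0.05. Prelp and Dcn reach 4.94 and 3.32 at P28 against P7, and Aspn falls furthest, to -3.13, at P56 against P28.

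Decorin, which coats collagen fibrils and binds transforming growth factor beta, gave more tags than any other member at P28 and P56. Dcn was at 381.7 and 369.4 in the E18.5 fibroblast libraries, 274.1 and 284.5 at P0.5, 1224.6 and 991.1 at P2, 1062.9 and 782.5 at P7, 7291 and 11433 at P28, and 1909 at P56. Its levels formed 3 steps, low around birth, intermediate at P2 and P7, and high at P28, with no overlap between the steps. The P28 libraries differed by more than those of any other stage in absolute terms, and the higher of them was library 2, which also held Col2a1. The step at P2 was a log2 fold change of 1.98 ± 0.21 (SE, limma, adjusted p = 3.76e-06) and the step at P28 was 3.32 ± 0.21 (adjusted p = 2.35e-09). Over the whole interval Dcn was higher by 4.60 ± 0.21 (adjusted p = 1.13e-11), and by 4.30 without E18.5 library 1 and P28 library 2, the pair that held cartilage markers (adjusted p = 5.99e-07). At P0.5 against E18.5 the change was -0.43 ± 0.21 (adjusted p = 0.192), which did not pass although the libraries did not overlap. Ranked within its library, Dcn was the 422nd and 416th most abundant gene at E18.5, the 17th and 7th at P28 and the 48th at P56. At P56 it was lower than at P28 by -2.26 ± 0.26 (adjusted p = 3.58e-06).

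Biglycan, the paralogue of decorin, varied least of the 7 up to P7 as a ratio of its highest to its lowest library. Bgn was at 842.7 and 890.2 at E18.5, 825.4 and 920.4 at P0.5, 1490.5 and 1299.6 at P2, 1143.3 and 1071.4 at P7, 2659 and 2313 at P28, and 825.7 at P56. The P28 libraries were the highest, and on the deposited scale the P56 library was level with the lower library at P0.5. As a share of reads the P56 library was above that one, at 0.107% against 0.0794%. The change at P28 against P7 was 1.16 ± 0.17 (adjusted p = 6.02e-05) and at P56 against P28 -1.59 ± 0.21 (adjusted p = 1.40e-05). The change at P2 against P0.5 was 0.67 ± 0.17 (adjusted p = 0.0101), and it missed the threshold without P0.5 library 1 (adjusted p = 0.104) or without P2 library 1 (adjusted p = 0.125). At P0.5 against E18.5 it was 0.01 ± 0.17. Bgn is X-linked, and Xist, the RNA of the inactive X chromosome, was at 12.4 in P28 library 1 and 552 in P28 library 2, against 411 to 1716 in the other fibroblast libraries. In epithelium, Xist was at 12.7 in P28 library 1 and 322 in P28 library 2. Any part of sex in the values of Bgn or of the other members was not tested.

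The ratio of the class I pair reversed. Dcn per Bgn was 0.453 and 0.415 at E18.5, 0.332 and 0.309 at P0.5, 0.822 and 0.763 at P2, 0.930 and 0.730 at P7, 2.74 and 4.94 at P28 and 2.31 at P56. Every library up to P7 thus held fewer Dcn than Bgn tags, and every later one held more. Dcn tags also became more frequent relative to those of type I collagen, with 0.252 to 0.653 Dcn tags per Col1a1 tag in the 8 libraries up to P7, 2.67 and 5.71 at P28 and 1.93 at P56. Because both tags of a ratio come from the same library, the ratio does not depend on how libraries were scaled.

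**Figure D3:**
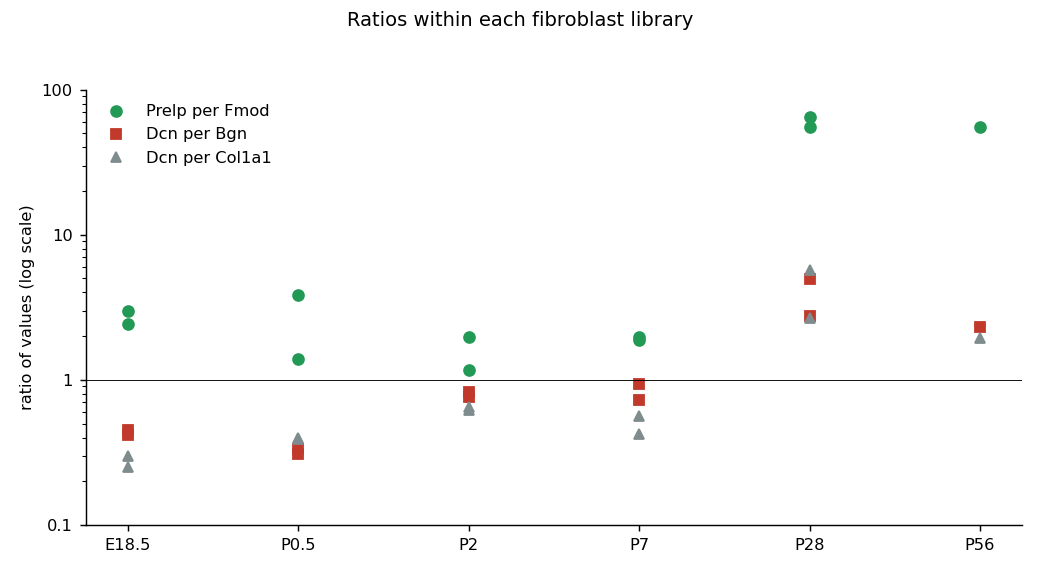
Ratios of values within each fibroblast library on a log scale, 1 point per library and ratio. Prelp per Fmod lies between 1.16 and 3.86 up to P7 and above 54 at P28 and P56, and Dcn per Bgn passes 1 between P7 and P28.

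Asporin, the class I member with no glycosaminoglycan chain, was scarce. Aspn was at 11.5 and 3.41 at E18.5, 24.9 and 24.3 at P0.5, 16.7 in both libraries at P2, 14.7 and 16.3 at P7, 29.2 and 33.5 at P28, and 2.69 at P56. Its high points were P0.5 and P28, and on the deposited scale the P56 library was below every other one. As a share of reads the P56 library (0.000349%) was slightly above E18.5 library 2 (0.000330%). The change at P0.5 against E18.5 was 1.78 ± 0.39 (adjusted p = 0.00400), which was 1.03 without E18.5 library 2 (adjusted p = 0.0861) and 2.54 without E18.5 library 1. For P28 against E18.5 it was 2.12 ± 0.39 (adjusted p = 3.05e-04), and 1.37 and 2.87 without those same libraries, past the threshold both times. At P28 against P7 it was 0.97 ± 0.39 (adjusted p = 0.0853). The drop at P56 against P28 was the steepest of the members, -3.13 ± 0.47 (adjusted p = 6.63e-05), from 20 reads in the P56 library and 183 in both P28 libraries together.

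**Figure D4:**
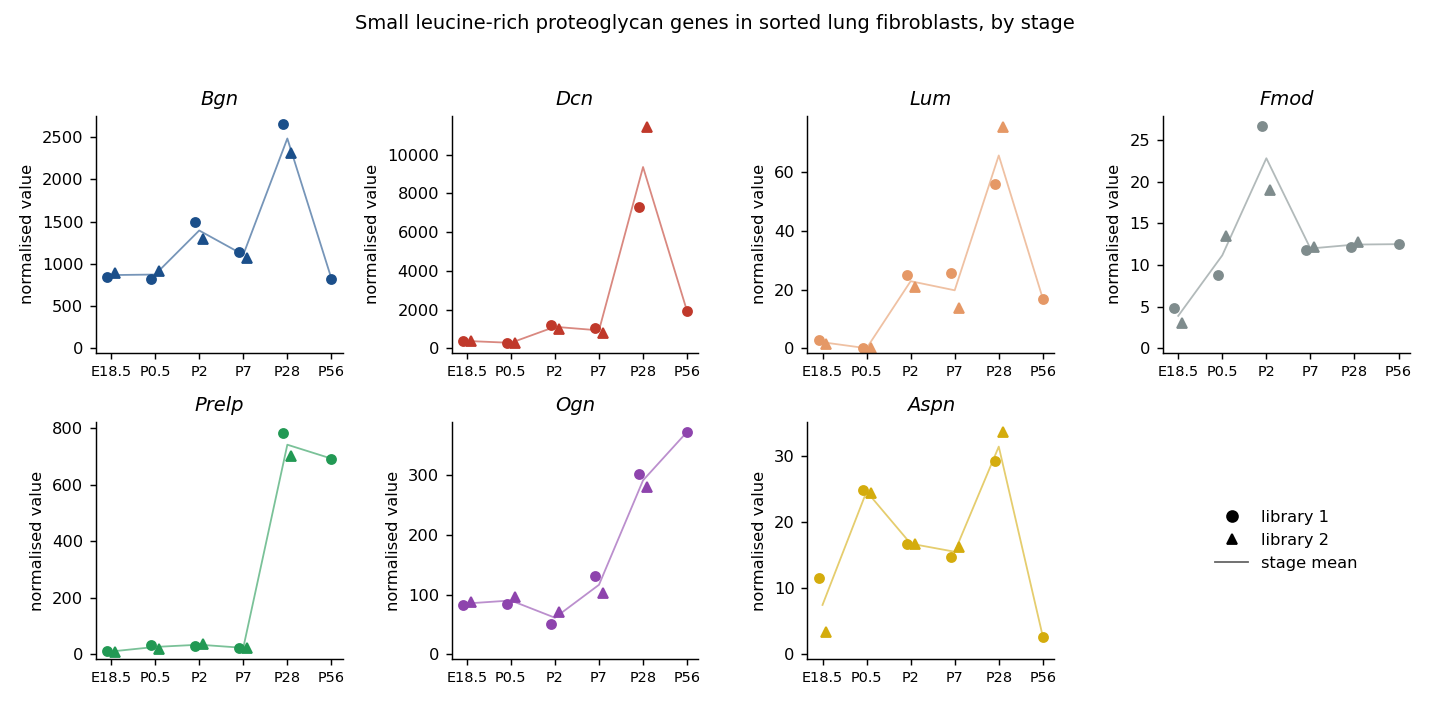
Deposited normalised value of each gene in every fibroblast library by stage, on a linear axis with its own range for each gene, circles for library 1, triangles for library 2 and a line through the stage means. Dcn and Prelp are near the bottom of their axes until P28, Fmod peaks at P2, and Ogn is highest in the P56 library.

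Lumican, a class II member that spaces collagen fibrils, was at or near 0 around birth. Lum was at 2.81 and 1.28 at E18.5, 0 in both libraries at P0.5, 24.9 and 20.8 at P2, 25.7 and 13.8 at P7, 56.1 and 75.4 at P28, and 16.9 at P56. The libraries of P2 and later were all above those of E18.5 and P0.5, and the P28 libraries were above all others. At P2 against P0.5, with 146 reads in the P2 libraries and 0 in the P0.5 libraries, Lum was at least 44.1-fold higher (limma, adjusted p = 2.98e-07), the bound being 3 reads over the P0.5 group. At P0.5 against E18.5, where 0 reads faced 13, it was at least 4.29-fold lower (adjusted p = 0.0114). That call did not hold without E18.5 library 1 (adjusted p = 0.0976) or without either P0.5 library (0.0595 and 0.0698), nor with a pseudocount of 4 (0.197). At P28 against P7 the change was 1.73 ± 0.39 (adjusted p = 0.00375), and the call was lost without P7 library 2 (0.0602) or P28 library 2 (0.0571). Over the whole interval it was 4.49 ± 0.39 (adjusted p = 6.33e-08), and at P56 against P28 -1.88 ± 0.48 (adjusted p = 0.00606).

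Fibromodulin, which binds collagen and takes part in its cross-linking, followed another course. Fmod was at 4.78 and 2.99 at E18.5, 8.81 and 13.5 at P0.5, 26.7 and 18.9 at P2, 11.8 and 12.1 at P7, 12.1 and 12.8 at P28, and 12.5 at P56. The P2 libraries were the highest, and the 5 libraries from P7 on lay within 1 unit of each other. At P0.5 against E18.5 the change was 1.31 ± 0.36 (adjusted p = 0.0174), not past the threshold without E18.5 library 2 (0.138) or P0.5 library 2 (0.202). At P2 against P0.5 it was 0.98 ± 0.36 (adjusted p = 0.0673, and 0.0482 with edgeR), and at P7 against P2 -0.86 ± 0.36 (adjusted p = 0.174). At P28 against P7 it was 0.05 ± 0.36 (adjusted p = 0.941) and at P56 against P28 0.01 ± 0.44 (adjusted p = 0.996). Only 73 reads supported Fmod at P28 and 74 at P7, a ratio of 1.04 with a 95% counting interval of 0.741 to 1.45.

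PRELP, which links basement membranes to the collagen beneath them, had the largest log2 fold change of the 7 at P28 against E18.5. Prelp was at 11.5 and 8.96 at E18.5, 34.0 and 18.7 at P0.5, 30.9 and 37.6 at P2, 23.4 and 23.0 at P7, 782 and 700.7 at P28, and 692 at P56. The 8 libraries up to P7 stayed within the range of 8.96 to 37.6, and the 3 later ones were all near 700 or above. At P28 against P7 the log2 fold change was 4.94 ± 0.26 (adjusted p = 1.36e-10), a ratio of 32.0 between the means of 741 at P28 and 23.2 at P7. Over the whole interval it was 6.05 ± 0.26 (adjusted p = 4.02e-12), the 9th largest rise of the 11954 genes tested. Unlike the class I pair it was not called at P56 against P28, where the change was -0.10 ± 0.31 on the deposited scale and 0.11 after TMM scaling (adjusted p = 0.848 and 0.821). The early change at P0.5 against E18.5 was 1.23 ± 0.26 (adjusted p = 0.00297), and missed the threshold without P0.5 library 1 (0.0892). Prelp per Fmod, the neighbours on chromosome 1 whose promoters are printed above, was 1.16 to 3.86 in the 8 libraries up to P7, 64.6 and 54.9 at P28 and 55.4 at P56.

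Osteoglycin, of class III, was the only member whose own highest fibroblast library on the deposited scale was that of P56. As a share of reads Prelp was also highest at P56, at 0.0900% against 0.0753% and 0.0676% at P28. Ogn was at 82.6 and 87.9 at E18.5, 84.3 and 96.2 at P0.5, 51.2 and 71.6 at P2, 130.8 and 102.3 at P7, 302.7 and 280.4 at P28, and 372.7 at P56. The P2 libraries were the lowest, the P7 libraries were above all earlier ones, and those of P28 and P56 were above the rest. The change at P7 against P2 was 0.92 ± 0.21 (adjusted p = 0.0101), not past the threshold without P2 library 1 (0.194) or P7 library 1 (0.0972). At P28 against P7 it was 1.33 ± 0.21 (adjusted p = 1.24e-04) and over the whole interval 1.76 ± 0.21 (adjusted p = 2.54e-06). At P56 against P28 it was 0.35 ± 0.25 (adjusted p = 0.313) on the deposited scale and 0.57 after TMM scaling (adjusted p = 0.105). Ogn and its chromosome 13 neighbour Aspn were thus both called higher at P28 than at E18.5, and at P56 against P28 Aspn was called lower and Ogn was not.

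The epithelial libraries were compared with the fibroblasts on joint CPM, reads of the genes in both tables scaled together to 1000000 per library. All 7 members were higher in fibroblasts over the 5 shared stages (limma, 10 libraries of each cell type), where 29.9% of the 13386 genes tested were called higher. Bgn had 799 to 2605 joint CPM in fibroblasts (median 1064) and 3.17 to 16.5 in epithelium (median 7.99), a log2 difference of 7.06 ± 0.10 (adjusted p = 1.22e-22), the 9th largest toward fibroblasts of all genes tested. Dcn had 265 to 11285 (median 851) in fibroblasts and 1.06 to 81.3 (median 9.60) in epithelium, a difference of 6.42 ± 0.25 (adjusted p = 1.57e-15). No epithelial library reached the lowest fibroblast library for either gene. Ogn had 48.3 to 297 in fibroblasts and 0 to 1.38 in epithelium (5.91 ± 0.17, adjusted p = 5.74e-18), and Prelp 8.47 to 766 in fibroblasts and 0 to 1.94 in epithelium (5.12 ± 0.19, adjusted p = 4.69e-16). Aspn had 579 reads in fibroblasts and 1 in the 10 epithelial libraries together, 9 of which were at 0. The ratio of its levels was 635, with a 95% counting interval of 114 to 25130, and the fitted difference was 4.07 ± 0.19 (adjusted p = 2.46e-14).

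Lum and Fmod were the members whose cell types overlapped. Lum had 0 to 74.4 joint CPM in fibroblasts and 0 to 3.91 in epithelium, where 8 of 10 libraries were at 0. Its difference of 2.85 ± 0.27 (limma, adjusted p = 6.19e-09) was not called by edgeR (adjusted p = 0.9999). At P0.5 both cell types had 0 Lum reads. The edgeR mean of log differences over stages is not bounded with such a stage, so nothing is read from its p. Fmod had 2.82 to 25.2 in fibroblasts and 0 to 5.07 in epithelium, a difference of 2.71 ± 0.19 (adjusted p = 2.83e-11). At E18.5 Fmod had means of 3.71 in fibroblasts and 4.44 in epithelium, a ratio of 0.836. By P2 they were 21.7 in fibroblasts and 0.151 in epithelium.

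**Figure D5:**
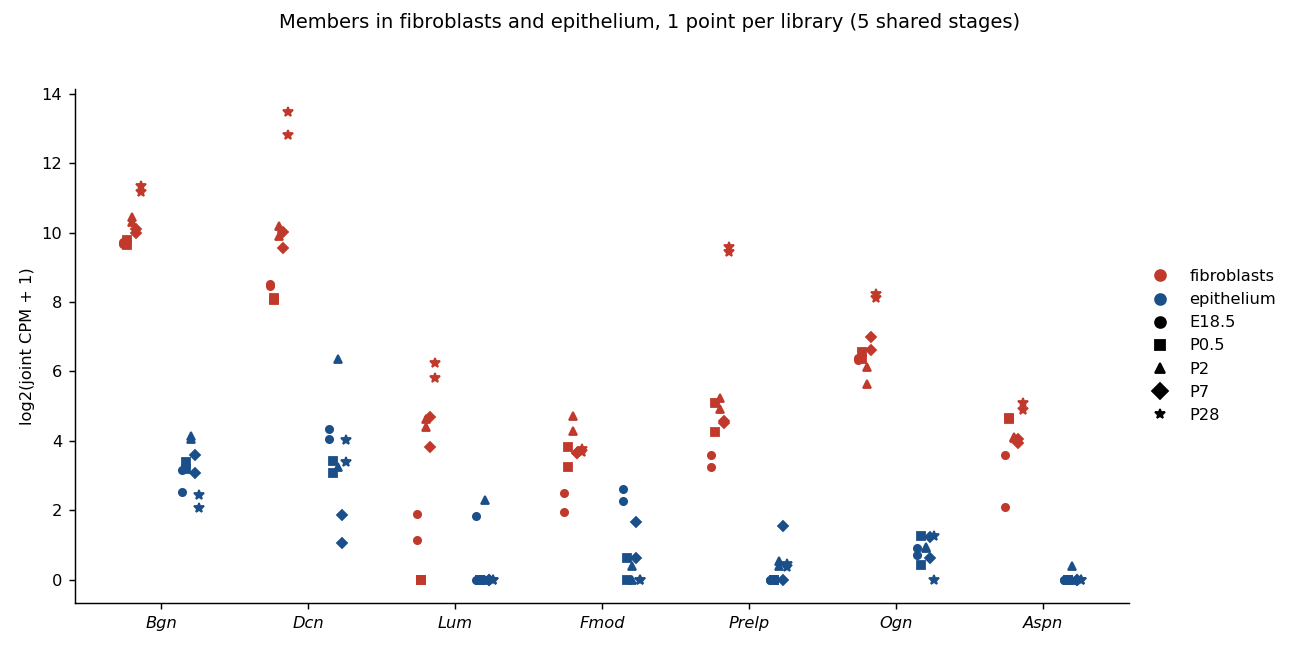
Log2(joint CPM + 1) of each gene in the 10 fibroblast libraries (left, red) and the 10 epithelial libraries (right, blue) of the 5 shared stages, with the stage given by the marker. The cell types are separate for Bgn, Dcn, Prelp, Ogn and Aspn and overlap for Lum and Fmod.

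Within the epithelium 3 members, Bgn, Dcn and Fmod, passed the filter on low values, and the other 4 were too scarce to be tested. Fmod was at 3.89 and 5.37 at E18.5, 0 and 0.566 at P0.5, 0 and 0.330 at P2, 0.560 and 2.24 at P7, and 0 in both libraries at P28. It was thus highest at E18.5, and both E18.5 libraries were above every later one. Fmod passed the filter only through those E18.5 libraries, so it had to be lower at other stages, and its levels are given as a description. With 2 reads at P0.5 and 29 at E18.5 its fitted change was -2.16 ± 0.53, and with 0 reads at P28 it was at least 9.37-fold lower than at E18.5. It was the member past the threshold in both comparisons, where 7.09% of genes were called lower at P0.5 and 11.3% at P28, and nothing is read from these calls. At P0.5 it was not past it without either P0.5 library (adjusted p = 0.141 and 0.0606), and without either E18.5 library Fmod was not tested. Markers of other cell types changed in the epithelial libraries over the same stages. The mesothelial sum over 9 genes was 7403 to 7714 at E18.5, 3898 to 4029 at P0.5 and 865 to 992 at P28, of which Krt19, a keratin of epithelium too, made 6971 and 7260 at E18.5, and Msln was at 428 and 444 there. Upk3b and Calb2 were at 0 in both E18.5 libraries, and 4 to 5 of the 9 genes were at 0. The leukocyte sum over 11 genes was 311 to 549 at E18.5, 518 to 553 at P0.5 and 4131 to 4534 at P28. Ptprc was a small part of it, at 12.4 and 21.3 at P28, against 0.324 and 1.26 at E18.5. At P7 the leukocyte sum was 1228 to 1445 with 6 to 8 of the 11 genes at 0, so it rested on few genes there. The part of these markers in the Fmod values was not tested. Dcn was at 15.9 and 20.5 at E18.5, 7.71 and 9.90 at P0.5, 85.2 and 9.23 at P2, 1.12 and 2.80 at P7, and 10.4 and 15.8 at P28. P2 library 1 stood far above its partner, and was also the highest epithelial library for Col1a2 (62.4) and Col3a1 (80.2), the collagen genes of the fibroblasts. Their part in its Dcn was not tested. Dcn was called lower at P7 against P2 (-3.39 ± 0.68, adjusted p = 0.0144, where 2.17% of genes were called lower), and not without P2 library 1 (-1.85, adjusted p = 0.0682) or P7 library 1 (0.129). No member was called at P2 against P0.5, where 8.82% of genes were called in either direction, and 2 of the 3 had an unadjusted p under 0.05 in limma, and edgeR called 1, Dcn. None was called at P28 against P7 in limma or edgeR, where 7.28% of genes were called in limma, although all 3 had an unadjusted p under 0.05. Bgn was at 8.11 and 5.05 at E18.5, 8.45 and 9.61 at P0.5, 17.3 and 17.1 at P2, 11.6 and 7.83 at P7, and 3.48 and 4.61 at P28.

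On the log2(joint CPM + 1) scale the fitted difference between cell types was larger at P28 than at E18.5. The change at P28 against E18.5 was larger in fibroblasts than in epithelium for all 7 genes by the interaction term, where 9.85% of genes were called in that direction. The interaction was 5.70 ± 0.59 for Prelp (adjusted p = 1.03e-06), 5.42 ± 0.85 for Lum (1.55e-04), 5.14 ± 0.79 for Dcn (1.24e-04), 3.95 ± 0.59 for Fmod (8.51e-05) and 2.16 ± 0.31 for Bgn (5.45e-05). It was weakest for Ogn (2.00 ± 0.53, adjusted p = 0.0126) and Aspn (2.15 ± 0.59, adjusted p = 0.0160). The call for Ogn was lost without epithelial P28 library 1 (0.0889), and that for Aspn without fibroblast E18.5 library 2 (0.110) or P28 library 2 (0.0520). edgeR called 4 of the 7, and not Prelp, Ogn and Aspn. Epithelial reads at E18.5 and P28 were 0 and 2 for Prelp, 0 and 0 for Aspn, 5 and 5 for Ogn, and 8 and 0 for Lum. For Prelp and Aspn the term thus mostly restates the fibroblast rise. For Ogn and Lum its epithelial part rests on those few reads. For Fmod, with 29 epithelial reads at E18.5 and 0 at P28, the epithelial fall was the larger part. In the fits within a cell type the Fmod change was -2.48 in epithelium and 1.49 in fibroblasts. From P7 to P28 alone the interaction was called for Prelp (5.35 ± 0.59, adjusted p = 4.65e-06) and Bgn (2.28 ± 0.31, adjusted p = 5.40e-05), where 5.48% of genes were. For Dcn it was 1.11 ± 0.79 (adjusted p = 0.463). Dcn had means of 9215 joint CPM at P28 and 887 at P7 in fibroblasts, and 12.3 at P28 and 1.86 at P7 in epithelium.

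Across the 11 fibroblast libraries the members fell into looser and tighter pairs. The Pearson correlation of log2(value + 1) was 0.893 for Dcn with Lum, 0.881 for Prelp with Ogn, 0.870 for Bgn with Dcn and 0.868 for Dcn with Prelp. It was -0.000326 for Fmod with Ogn, -0.0727 for Ogn with Aspn and 0.335 for the neighbours Prelp and Fmod. These describe 11 libraries that share their stages, and libraries of the same stage are not independent points. Of 2379 other genes with a mean of at least 50, those most like each member were Ly6e (0.948), Ints6 and Jmjd1c for Bgn, Ddr2 (0.963), Aebp1 and Lama2 for Dcn, and Me1 (0.940), Mpdz and Pcolce for Lum. They were Chd1 (0.951), Akirin1 and Sde2 for Fmod, Slc43a3 (0.983), Nbl1 and Sparcl1 for Prelp, C3 (0.975), C7 and Psap for Ogn, and Thoc6 (0.951), Ddx6 and Mbnl1 for Aspn.

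Of the 11 other genes of the family, 10 had a row and 4 passed the filter in fibroblasts. At P28 against E18.5, 2 of those 4 were called higher and none lower, where 18.7% of all genes were called higher and 14.9% lower. Podn, podocan, was at 81.5 and 102.4 at E18.5, 614.5 and 748.1 at P28 and 398.6 at P56, a change of 2.88 ± 0.19 for P28 against E18.5 (adjusted p = 1.92e-09). Ecm2, the neighbour of Aspn on chromosome 13, was at 13.2 and 5.12 at E18.5, 295.9 and 416.7 at P28 and 36.8 at P56, a change of 5.24 ± 0.32 for P28 against E18.5 (adjusted p = 4.92e-10). Like Aspn, Ecm2 was called lower at P56 against P28 (-3.22 ± 0.39, adjusted p = 5.81e-06). Podn overlaps Scp2 on the same strand, and tags shared between them could not be told apart. Omd, between Aspn and Ogn, was at 0.263 to 6.79 in fibroblasts, Podnl1 at 0.629 to 4.46 and Tsku, tsukushi, at 7.79 to 48.0 with its highest libraries at P2. Epyc, Optc, Nyx, Chad and Chadl were at 0 to 2.79, and Kera was not analysed here.

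The genes that build the chains and the fibrils around these core proteins moved in both directions at P28 against E18.5. Of all genes tested, 18.7% were called higher there and 14.9% lower. Of 19 genes of chondroitin and dermatan sulfate synthesis tested, 6 were called higher and 4 lower (median 0.47), with the polymerising factor Chpf higher (1.70 ± 0.17, adjusted p = 4.21e-07) and the polymerase Chsy1 lower (-1.83 ± 0.26, adjusted p = 2.56e-05). Of 5 genes of keratan sulfate synthesis, 3 were called lower, where 14.9% of all genes were, and none higher (median -0.60), with the sulfotransferase Chst2 at -2.20 ± 0.20 (adjusted p = 1.16e-07) and B4galt4 at -1.87. Of 20 genes of collagen fibrils and their cross-links, 11 were called higher and 1 lower (median 0.72). Pcolce2, which aids procollagen processing, was higher by 3.30 and Col3a1 by 1.28, and the one called lower was Lox, the collagen cross-linking oxidase (-2.61 ± 0.21, adjusted p = 1.98e-08). Lox was at 881 and 1418 at P28, against 6430 and 7274 at E18.5.

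Among 7 proteases that cut these proteins, 5 were called higher and 1 lower (median 1.85), with the aggrecanase Adamts5 at 3.23 and the metalloproteinase Mmp3 at 4.78. Of 15 growth factors and receptors that the family binds, 11 were called higher and none lower (median 1.45), with Tgfb3 at 2.53, the growth factor receptor Egfr at 3.19, and the innate receptors Tlr4 at 4.01 and Tlr2 at 3.18. Of 19 other proteoglycan genes, 8 were called higher and 1 lower (median 0.78), with the hyaluronan receptor Cd44 at 2.19, the basement membrane proteoglycan gene Hspg2 at 2.72 and lubricin (Prg4) at 3.82. The median over all genes was 0.01, with 18.7% of them called higher and 14.9% called lower.

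Markers of other fibroblast and cell types moved over the same interval, and their part in the values of the 7 genes was not tested. Of all genes tested, 18.7% were called higher at P28 than at E18.5 and 14.9% lower. Of 11 adventitial fibroblast markers tested, 9 were called higher at P28 than at E18.5 and none lower (median 3.37), among them Gsn, an actin-severing protein gene (3.37), Pi16 (5.86) and Cd34 (4.27). Their summed value over 13 genes was 919 to 1136 at E18.5, 9106 to 10620 at P28 and 10070 at P56. None of the 13 was at 0 at P28, against 3 to 4 at E18.5. Pi16 was at 77.1 and 90.1 at P28, against 1.12 and 0 at E18.5. Of 11 alveolar fibroblast markers, 5 were called higher and 4 lower, with Inmt at 4.06 and Wnt2 at -1.90, and of 10 myofibroblast and smooth muscle markers, 3 were higher and 2 lower. Of 6 pericyte markers, 1 was called lower and none higher. Of 12 mesenchymal markers, 7 were called higher and 3 lower, with Mgp at 2.34 and Fn1 at -2.37.

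Of 7 mesothelial markers, 5 were called higher at P28 than at E18.5 and none lower, where 18.7% of all genes were called higher and 14.9% lower. The mesothelial sum over 9 genes was 490 to 536 at P28, against 245 to 249 at E18.5. All 7 mesothelial markers were called lower at P56 against P28, where 19.1% of all genes were called lower. At P56 the sum was 202 and 5 of the 9 genes were at 0, Msln among them. The leukocyte marker sum over 9 genes was 39.3 to 123 at P28, against 3.93 to 21.8 at E18.5, and Ptprc, which encodes CD45, was at 1.77 and 7.18 at P28, against 0 in both E18.5 libraries. The endothelial sum over 7 genes was 15.1 to 18.7 at P28, against 8.10 to 12.4 at E18.5, with Pecam1 at 0.886 and 1.99 at P28, against 0 in both E18.5 libraries. Of 6 epithelial markers, 4 were called lower and none higher, with a sum over 12 genes of 24.5 to 52.6 at P28, against 136 to 151 at E18.5. The chondrocyte sum over 8 genes was 2.07 to 35.5 at P28, against 5.54 to 46.1 at E18.5. Without P28 library 2 and E18.5 library 1, which carried those cartilage markers, 1 library was left at each of the 2 stages. The log2 change at P28 against E18.5 was then 1.58 for Bgn, 4.30 for Dcn, 4.65 for Lum and 1.72 for Fmod. It was 6.30 for Prelp, 1.77 for Ogn and 2.78 for Aspn.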

How the data were processed

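Gene expression was measured by 3'SAGE-seq on an Ion Proton in 21 libraries of sorted mouse lung fibroblasts and epithelial cells. The deposited values are a normalised signal per gene, 1 table per library, made by the authors. Per the submitters' processing notes, the tools were Bowtie2 2.2.5 and R 3.4.0 and the build was mm10. How the values were normalised is not given in the sources used. Every value above 0 was a whole multiple of 1 constant per library. With that constant as the worth of 1 read, 100% of values were whole reads to within 0.01, at a depth of 2146071 to 5729829 reads. A count of 0 allows up to 3 reads, or 0.403 to 1.37 value units in 1 library. Intervals and floors cover counting error only, since amplified reads carry no molecular identifiers. Replicate libraries differed beyond sampling noise (chi-square over its degrees of freedom 4.64 to 10.6), and none was counted as a repeat of another.

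Stages were compared within a cell type with limma 3.58.1 (R 4.3.3, mean-variance trend) on log2(value + 1), over genes that reached a value of 3 in at least 2 libraries, with 1 mean per stage. That scale understates the change of low genes. Cell types, whose tables were normalised separately, were compared on recovered reads of the 20004 shared genes, scaled together with TMM factors to 1000000 (joint CPM). Adjusted p-values are two-sided Benjamini-Hochberg values over all genes tested, at a threshold of 0.05. The lone P56 library is assumed to vary like the other groups. As an alternative, the quasi-likelihood test of edgeR 4.0.16 on the recovered reads called 3863 genes for fibroblasts P28 against E18.5, against 4020 in limma. Other alternatives were the pseudocount, the filter, TMM scaling (or, between cell types, the deposited values unscaled), a replicate block and leaving out each library. The scripts were tested on simulated data. The members, gene lists, tests and the rule for named genes were chosen with earlier results of these data known. That rule named all members, the 3 genes most correlated with each, the other family genes, and up to 4 genes of each list with the smallest p at P28 against E18.5. The sequences are from RefSeq.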

Additional observations from a re-analysis of the deposited data

Results flagged for a closer look

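Each of the following was singled out because the change over time differed between fibroblasts and epithelium by a test of the difference itself, the interaction term of limma on log2(joint CPM + 1). For P28 against E18.5 the fibroblast change exceeded the epithelial change by 2.16 for Bgn, 5.14 for Dcn, 5.42 for Lum, 3.95 for Fmod, 5.70 for Prelp, 2.00 for Ogn and 2.15 for Aspn, all past an adjusted p of 0.05. For P28 against P7 it exceeded it by 2.28 for Bgn and 5.35 for Prelp. Epithelial reads behind these terms were few: Prelp had 2 reads at P28 and 0 at E18.5, Fmod 0 at P28 and 29 at E18.5, Lum 0 at P28 and 8 at E18.5, and Aspn 0 at both. For Prelp and Aspn the P28 against E18.5 term thus mostly restates the fibroblast rise, and for Fmod it rests more on the epithelial fall. In edgeR on recovered reads, that term was not called for Prelp (adjusted p = 0.958), Ogn (0.295) and Aspn (0.9998). With 0 epithelial reads at E18.5, edgeR cannot bound the epithelial change of Prelp and Aspn.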

How the results depend on the processing

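Of 1056 member values recomputed under the alternatives, 1016 kept their direction and side of the threshold, 31 lost the threshold, 9 gained it and 0 reversed. Of 180 recomputed counts of called members, 160 stayed within 1.5 times. With no filter on low values the count of called members was 0 for fibroblasts P0.5 against E18.5 (4 with it), 0 for fibroblasts P7 against P2 (1) and 0 for epithelium P7 against P2 (1). That setting tests 21170 genes in fibroblasts in place of 11954. Over all genes it called 1113 at P0.5 against E18.5 (1839), 1254 at P2 against P0.5 (2025) and 359 at P7 against P2 (794) in fibroblasts, and 578 at P2 against P0.5 (1071) and 211 at P7 against P2 (451) in epithelium. edgeR called 1 member for epithelium P2 against P0.5 (0 in limma) and 4 for the whole-course interaction (7). A pseudocount of 4 gave 4 for the P7 to P28 interaction (2). The cause was not tested.

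Leaving out 1 library at a time gave 2 to 3 called members for fibroblasts P0.5 against E18.5, 0 to 1 for fibroblasts P7 against P2, 0 to 0 for epithelium P0.5 against E18.5, and 0 to 1 for epithelium P2 against P0.5, P7 against P2 and P28 against E18.5. Without either epithelial E18.5 library Fmod fell out of the genes tested. Over all genes the counts with 1 library left out ranged, in fibroblasts, over 676 to 1354 at P0.5 against E18.5 (1839 with all), 789 to 1129 at P2 against P0.5 (2025), 262 to 514 at P7 against P2 (794) and 1548 to 2032 at P28 against P7 (2491). In epithelium they were 616 to 1118 at P0.5 against E18.5 (1740), 109 to 775 at P2 against P0.5 (1071), 140 to 431 at P7 against P2 (451), 406 to 566 at P28 against P7 (884) and 1838 to 2347 at P28 against E18.5 (3020), and for the P7 to P28 interaction 756 to 1060 (1150). The P56 library could be left out only of the test over all stages, since it is alone in its group. TMM scaling put 51.9% of called genes higher at epithelium P7 against P2, against 41.7% on the deposited scale.

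Within a cell type, libraries of the same replicate number did not deviate together across stages (correlations of -0.0621 to 0.0738). Fibroblast and epithelial libraries of the same stage and number were not compared in this way. At P28 Xist was at 12.4 in fibroblast library 1 and 12.7 in epithelial library 1, against 552 and 322 in library 2 of each. Whether such libraries share animals was not tested, and the comparisons between cell types took no pairing into account. With the replicate block 14 of 15 comparisons had the same count of called members, 7 for fibroblasts P28 against E18.5 among them, and the P7 to P28 interaction had 3 in place of 2, Ogn being added.

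Depth limits the epithelial values: 3 reads over a group of 2 epithelial libraries equal 0.336 to 0.574 value units. Aspn had 1 read over all 10 epithelial libraries, Prelp 15, Lum 17 and Ogn 29.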

Other observations

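Prelp in the epithelium had 11 reads in P7 library 1 and 0 in P7 library 2, and 0 or 1 read in each of the other 8 epithelial libraries. Podn, another gene of the family, was at 44.8 and 21.6 in epithelium at P28 and at 3.11 to 13.4 in the epithelial libraries of the earlier stages, while Col1a1 was at 1.54 and 0.288 at P28. Because Podn overlaps Scp2 on the same strand, tags shared between these 2 genes could not be told apart here either. Omd, which lies between Aspn and Ogn, did not differ detectably between cell types, with a log2 difference of fibroblasts minus epithelium of 0.37 ± 0.26 (limma, adjusted p = 0.227).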
